A study of Homo sapiens with 1 sample.

Results

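The miR-378 family was read on 1 microRNA (miRNA) microarray of DLD-1, an established human colorectal carcinoma line, which had been given a negative control siRNA (si-NC; 1 array, n = 1). The members were taken by name: they were hsa-miR-378a-3p, hsa-miR-378a-5p, hsa-miR-378b, hsa-miR-378c, hsa-miR-378d, hsa-miR-378e, hsa-miR-378f, hsa-miR-378g, hsa-miR-378h and hsa-miR-378i, which are 10 of the 2549 human miRNAs on the array. The study depleted or overexpressed circLONP2, a circular RNA of the LONP2 gene, in the same line, and asked which miRNAs changed. Arrays of the depletion and overexpression were not analysed here, so no groups were compared and no p-value was computed. Every error below is technical, coming from replicate spots or from the error estimate of the scanning software.

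A miRNA is a short RNA that is cut from a hairpin precursor and guides a silencing complex to messenger RNAs, mainly through its seed, the bases just behind its 5′ end. miR-378a lies inside PPARGC1B, the gene of the transcriptional coactivator PGC-1β, which drives genes of mitochondrial energy metabolism. The family is known for its part in lipid and energy metabolism in muscle, fat and liver, and the 5p arm of miR-378a has been studied as a regulator of oxidative metabolism in cancer cells. The lettered members are encoded by separate hairpins in the genome and closely resemble the 3p arm of miR-378a.

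The hairpin of miR-378a is shown because both of its arms were measured. It lies at chr5:149732825-149732890 on the plus strand of GRCh38.p14, within the bounds of PPARGC1B, which runs in the same direction. Capitals mark the 5p arm (hairpin bases 5 to 26) and the 3p arm (bases 43 to 64).
MIR378A: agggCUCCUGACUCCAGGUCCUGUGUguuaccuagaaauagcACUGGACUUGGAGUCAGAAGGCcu

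The mature sequences are from RefSeq on GRCh38.p14. They are shown because the lettered copies listed differ from miR-378a-3p at only 1 or 2 of the bases compared. Yet their spots ranged from background to more than 1000. Of the copies listed, those with every probe at background, miR-378c and miR-378h, differ at 2 of the bases compared. Bases past the compared length were not counted: miR-378c is 3 bases longer than miR-378a-3p, and miR-378b, which was detected, is 3 bases shorter. miR-378a-5p, the other arm, is listed last and shares no such likeness. Capitals mark the seed, bases 2 to 8. A sequence was matched by name for 8 of the 10 members, all except miR-378d and miR-378e.
miR-378a-3p: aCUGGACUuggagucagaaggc
miR-378b: aCUGGACUuggaggcagaa
miR-378c: aCUGGACUuggagucagaagagugg
miR-378f: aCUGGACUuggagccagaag
miR-378h: aCUGGACUuggugucagaugg
miR-378i: aCUGGACUaggagucagaagg
miR-378g: aCUGGGCUuggagucagaag
miR-378a-5p: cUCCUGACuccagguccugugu

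Counted from 1 at the 5′ end, with the base of miR-378a-3p written first, miR-378b carried U14G and ended 3 bases earlier, miR-378f carried U14C and ended 2 bases earlier, and miR-378i carried U9A and ended 1 base earlier. miR-378h carried A12U and A19U. miR-378g carried A6G, which lies in the seed. miR-378c was identical over its first 20 bases, then carried G21A and C22G and ran on for 3 more bases. Of the 8 members with a sequence, 6 had the seed of miR-378a-3p, itself included. Mature miR-378i was annotated at chr22:41923271-41923291 on the minus strand, within the bounds of TNFRSF13C. miR-378b lay at chr3:10330262-10330280 on the plus strand, within ATP2B2, which runs the other way. miR-378h lay at chr5:154829466-154829486 on the plus strand, within FAXDC2, which also runs the other way. miR-378g lay at chr1:94745880-94745899 on the minus strand, within the antisense RNA gene SLC44A3-AS1. No other gene of the table contained miR-378f (chr1:23929121-23929140, plus strand) or miR-378c (chr10:130962634-130962658, minus strand). The table of genes holds no exons, so exonic and intronic positions were not told apart.

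The family was carried by 21 probes and 200 of the 50980 miRNA spots, with 20 spots for each member. The intensity of a spot is given after background subtraction, in array units. A spot counted as well above background by the flag of the software, and 142 of the 200 spots did. No spot of the family was saturated, and 9 were flagged as outliers and left out of means. The 1000 negative control spots had a median intensity of 0.0894 and a 99th percentile of 16.1. As a check of the label, against 44.4% of all miRNAs detected on the array, 7 of 7 intestinal epithelial marker miRNAs were detected (total gene signals 52.2 to 7625). For striated muscle, a tissue rich in miR-378a, 1 of 7 markers was detected, miR-499a-5p at 12.4 ± 1.11, and miR-1-3p, miR-133a-3p, miR-133b and miR-206 had 0 of 20 spots well above background each. All 3 blood markers (21.5 to 695) and 1 of 3 stroma and vessel markers (miR-126-3p, 123 ± 8.75) were detected, and whether they bear on the family was not tested.

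The software detected 8 of the 10 members, against 44.4% of all miRNAs on the array. miR-378c and miR-378h were the members not detected. The total gene signal is a sum over probes whose own total passed 3 times its error, which held for all 8 detected members, and it was at a median of 35.3 over the 8 detected members and of 12.5 over all 1133 detected miRNAs, whose quartiles were 4.99 and 52.0. Of the 8 members, 5 lay above that median and 4 above the upper quartile. These were miR-378i, miR-378a-3p, miR-378b and miR-378d. The error of the total ran from 5.90% of the value for miR-378a-3p to 12.0% for miR-378a-5p.

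The same 8 members were detected when 1 probe had to have 50% or more of its spots well above background (37.9% of all miRNAs), when the median spot had to exceed the 99th percentile of negative control spots (31.2%), and when a total of 5 or more was required (33.3%). When every probe had to meet that limit of 50%, 6 members were left, against 29.4% of all miRNAs. The members lost under that rule were miR-378e and miR-378f. Their median spots, 24.8 and 23.4, fell between a dim and a bright probe, with 10 of 20 spots above the percentile of negative controls, so the rule on the median spot pooled unlike probes there.

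**Figure D1:**
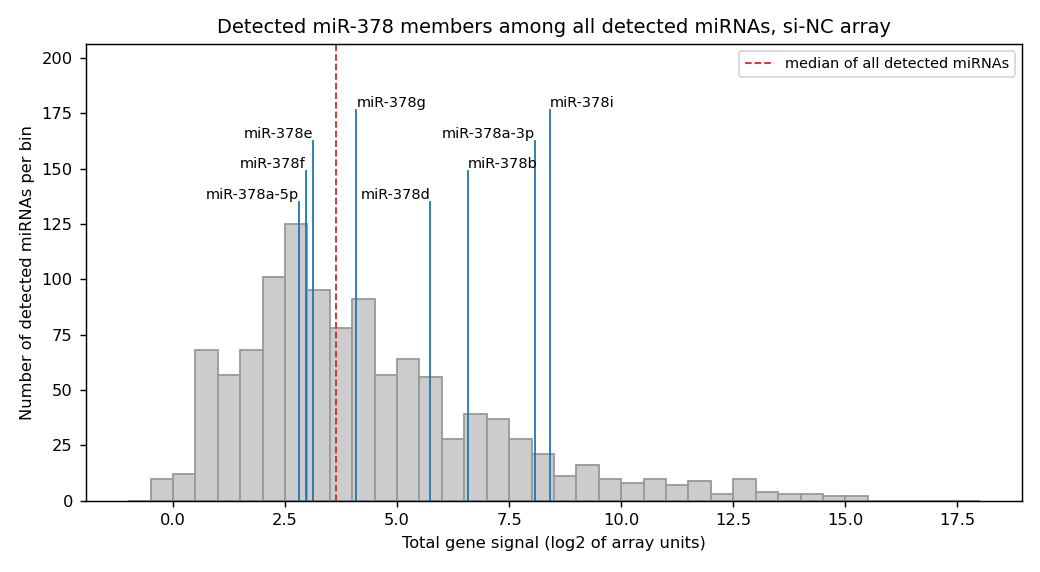
Histogram of the log2 total gene signal (x axis, array units) of the 1133 miRNAs detected on the si-NC array, with the number of miRNAs per bin on the y axis. Blue lines mark the 8 detected miR-378 members and the dashed line marks the median of all detected miRNAs, 12.5 before the log. miR-378a-5p, miR-378f and miR-378e lie to the left of that median, and the other 5 members to the right.

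The 3p arm of miR-378a, the mature miRNA for which the family is best known, was read by 3 probes. Their spots ran from 498 through a median of 555 to 559 (7 spots), from 635 through 699.8 to 739.8 (7 spots) and from 983 through 1040.4 to 1092 (6 spots). The spots of these probes did not overlap, and all 20 were well above background. The total gene signal was 271 ± 16.0 (error from the scanner software), and 89.8% of detected miRNAs had a lower total.

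The 5p arm of the same hairpin gave a signal close to background. Its dimmer probe ran from 14.1 through a median of 16.5 to 21.7 and its brighter probe from 17.9 through 21.7 to 26.0 (10 spots each). All 20 spots carried the flag for well above background, but only 16 exceeded the 99th percentile of negative control spots. The total was 7.02 ± 0.843. Both arms of miR-378a were therefore detected, as they were for 232 of the 810 hairpin names with both arms on the array, or 28.6%. Intensities of the 5p and 3p arms come from different probes, whose binding can differ, so they do not give the ratio of the arms in the cells. The same limit holds for every pair of members below.

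Among the lettered copies, only miR-378i had spots that overlapped those of miR-378a-3p. Its dimmer probe ran from 682 through 735 to 777 and its brighter probe from 1058 through 1140.3 to 1199 (10 spots each). The former overlapped the middle probe of miR-378a-3p and the latter its brightest probe. The total of miR-378i was 342 ± 24.8, higher than that of miR-378a-3p by 70.6, which was 2.40 times their combined error of 29.5. That error leaves out the differences between probes of a member.

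The spots of miR-378b lay lower and close together. One probe ran from 242 through 252 to 273 over 8 spots, with outlier spots at 201 and 214, and the other ran from 241 through 271 to 284 over 10 spots. No spot of miR-378b overlapped those of miR-378a-3p. Its total was 95.6 ± 6.80. The probes of miR-378b differed by 0.09 ± 0.03 on the log2 scale (SE from replicate spots), the smallest difference among the members with several probes above background.

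For miR-378d the probes disagreed. The brighter probe ran from 239 through 255 to 275 (9 spots) and the dimmer from 33.5 through 35.8 to 39.4 (8 spots), a difference of 2.84 ± 0.04 on the log2 scale. That exceeded 97.3% of such differences over the 800 miRNAs with several probes well above background. Outlier spots of the dimmer probe, at 56.9 and 63.1, also stayed far under the brighter probe. The total of 53.6 ± 4.80 rested mainly on the brighter probe, which contributed 47.0.

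miR-378g, the copy with the altered seed, was also read differently by its probes. They ran from 16.1 through 20.2 to 31.4 and from 65.0 through 70.6 to 78.7 (10 spots each), which is 1.79 ± 0.10 apart on the log2 scale, and 91.5% of the array differences were smaller. The total was 17.0 ± 1.53. All of its spots were well above background, and 19 of 20 exceeded the 99th percentile of negative control spots.

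miR-378e and miR-378f each had 1 probe with all 10 spots well above background and 1 dim probe. The brighter probe of miR-378e ran from 37.0 through 38.3 to 40.6 (8 spots). Its dim probe ran from 5.79 through 9.41 to 15.0 with 1 of 10 spots well above background. For miR-378f the corresponding ranges were 39.0 through 42.6 to 48.5 and 1.60 through 4.89 to 7.82, the latter with 0 of 10 spots well above background. The totals were 8.77 ± 0.991 for miR-378e and 7.83 ± 0.918 for miR-378f. In miR-378f the total equalled that of the brighter probe. The dim probe of miR-378e still added 1.75, which was 3.43 times its error.

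The remaining copies gave no signal over background. The probes of miR-378c ran from -1.66 through -0.545 to 0.129 (9 spots) and from -1.87 through 0.695 to 2.55 (10 spots), with an outlier spot at 8.0. None of its 20 spots was well above background. The probes of miR-378h ran from -0.580 through 0.599 to 2.77 (9 spots) and from -1.46 through 1.59 to 3.45 (10 spots). Its outlier spot at 14.4 was the only spot well above background, and it lay below the 99th percentile of negative control spots. Both miRNAs stood at the lowest value of the deposited table, 2.32, as did all 1416 undetected miRNAs and 0 detected ones.

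**Figure D2:**
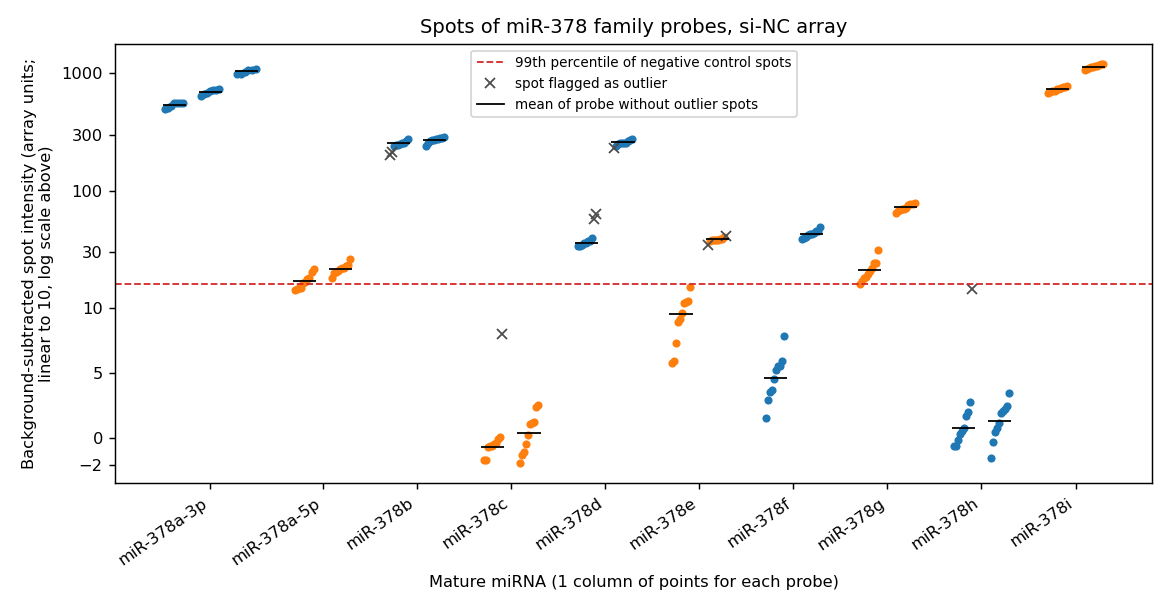
Background-subtracted intensity of every spot (y axis, array units, linear to 10 and on a log scale above) for each probe of the 10 members on the x axis, with alternating colours to separate members, crosses for outlier spots, black bars for probe means and a dashed line at 16.1, the 99th percentile of negative control spots. miR-378i reaches the level of miR-378a-3p, the probes of miR-378d, miR-378e, miR-378f and miR-378g stand apart from each other, and the spots of miR-378c and miR-378h lie below the dashed line.

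Replicate spots of a probe were close for the bright members, and also for the brighter probe of the dim member miR-378e. Over the 15 family probes with 50% or more of their spots well above background, the coefficient of variation (CV) had a median of 4.97% and ranged from 2.69% for the brighter probe of miR-378e to 21.6% for the dimmer probe of miR-378g. The median over all 1940 such probes on the array was 8.73%, but the probes were not matched for intensity. For the 6 members with 2 or more such probes, the median log2 difference between the brightest and dimmest probe was 0.79, against 0.35 over the 800 miRNAs. The differences for miR-378a-3p, miR-378i and miR-378a-5p were 0.95 ± 0.04, 0.64 ± 0.03 and 0.36 ± 0.08. Each of these exceeded the error from replicate spots, so the choice of probe moved the signal of a member by more than the repeat of a spot did.

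Ordered by total gene signal, the detected members ran from miR-378i through miR-378a-3p, miR-378b, miR-378d, miR-378g, miR-378e and miR-378f to miR-378a-5p. Neighbours in this order differed by more than 2 times their combined error, except for miR-378e and miR-378f (difference 0.945, combined error 1.35) and for miR-378f and miR-378a-5p (0.801 and 1.25). This error comes from the scanner software and leaves out the differences between probes of a member, so it does not settle the order. A probe total was 0.0183 times the mean spot times the number of spots for every family probe. The mean left out outlier spots. The totals of the detected members took in all of their probes, except that of miR-378f, which took in 1 of its 2. As log2 values against a reference of 143, the 75th percentile of spot intensity among detected miRNAs, miR-378i stood at 2.68 ± 0.06 (SD over replicate spots), miR-378a-3p at 2.35 ± 0.07, miR-378b at 0.87 ± 0.07 and miR-378d at -0.57 ± 0.07. The values were -1.74 ± 0.10 for miR-378f and -1.89 ± 0.04 for miR-378e, each from its brighter probe, -1.89 ± 0.22 for miR-378g and -2.91 ± 0.18 for miR-378a-5p. Here miR-378f stood above miR-378g, the reverse of their totals, but these log2 values overlapped within their SDs. The totals add probes, while the log2 values average the probes well above background. Whether dim members stood apart therefore depended on how their probes were combined.

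Next, the signal was set beside the sequence. Of 2549 array miRNAs, 2248 (88.2%) had a mature sequence by name, and 7 of these shared the seed of miR-378a-3p, of which 4 were detected, against 44.4% of all miRNAs. These were miR-378a-3p, miR-378b, miR-378f and miR-378i. The detected members miR-378d and miR-378e had no sequence by name, so the count could not include them. The single non-member among the 7 was miR-422a, shown because it shares 20 of 22 bases with miR-378a-3p, including the last 10.
miR-422a: aCUGGACUuagggucagaaggc

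It carried G10A and A12G. Its 20 spots ran from 0.820 through a median of 5.99 to 10.1, and 0 of them were well above background. The non-members next in likeness were miR-378j (C7U and U14C) and miR-6128 (C7A and G17A), each with 17 of 19 bases matching, and neither was detected. The highest spot was 5.24 for miR-378j and 6.03 for miR-6128.

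The count of matching bases did not order the signals. miR-378i, miR-378c and miR-422a each matched miR-378a-3p at 20 positions, and their median spots were 917, -0.390 and 5.99. miR-378f, miR-378g and miR-378h each matched at 19 positions, with median spots of 23.4, 48.2 and 1.02. miR-378b matched at 18 positions and had a median spot of 259. Hence detected and undetected sequences stood side by side at the same number of matches. The length compared ran from 19 to 22 bases. Counted instead as differing bases within the compared length, the sequences with 1 (miR-378b, miR-378f, miR-378g and miR-378i) were all detected. Those with 2 (miR-378c, miR-378h, miR-422a, miR-378j and miR-6128) were all undetected. At 1 differing base, median spots still ran from 23.4 to 917. miR-378d and miR-378e had no sequence to compare. Bases past the compared length did not count as differing. The detected miR-378b, miR-378f, miR-378g and miR-378i end 3, 2, 2 and 1 bases earlier than miR-378a-3p. Of the undetected sequences, miR-422a has the length of miR-378a-3p, and miR-378h ends 1 base earlier. miR-378j and miR-6128 end 3 bases earlier, and miR-378c runs on for 3 more. The split by differing bases therefore holds only for the bases compared, and it was not tested further. Whether a copy shows RNA of its own or RNA of miR-378a-3p bound to its probe was not tested, as probe sequences and arrays with known input were not used here.

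**Figure D3:**
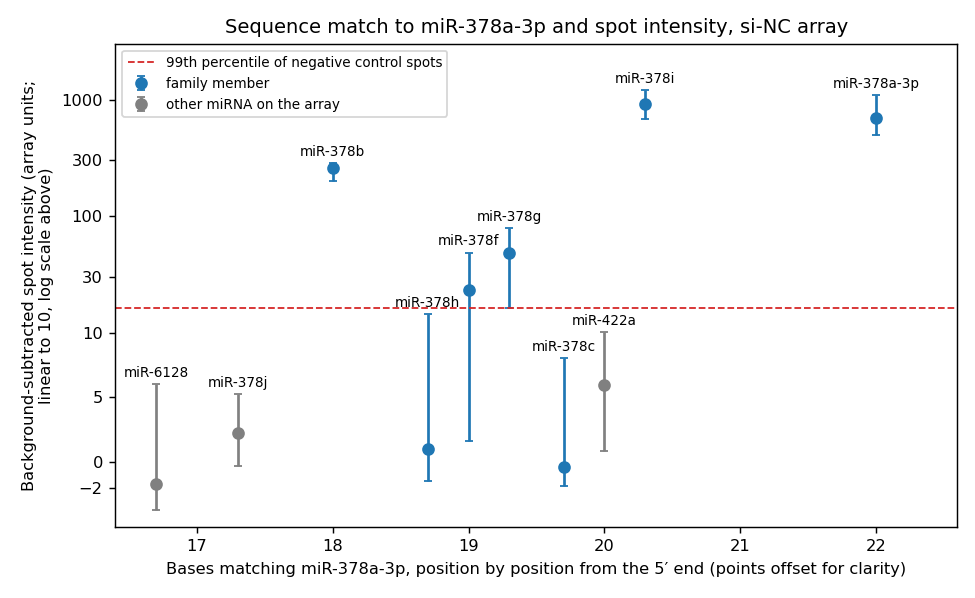
Median background-subtracted spot intensity (y axis, array units, linear to 10 and on a log scale above) against the number of bases matching miR-378a-3p from the 5′ end (x axis, points offset sideways). Points are medians and bars run from the lowest to the highest of 20 spots, outlier spots included, in blue for members and grey for other array miRNAs. At 20 matching bases miR-378i lies at 917, while miR-378c and miR-422a lie below the dashed line at 16.1.

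Among miRNAs known from lipid, glucose, fat or muscle metabolism, 11 of the 18 on the list, or 61.1%, were detected, against 44.4% of all miRNAs on the array. The highest totals were 3399 ± 242 for miR-103a-3p and 3364 ± 240 for miR-107, near-identical miRNAs of PANK introns linked to insulin sensitivity, and 2041 ± 146 for miR-27a-3p, a regulator of fat cell differentiation. Undetected were miR-33b-5p, miR-122-5p, miR-143-3p, miR-455-3p, miR-208a-3p, miR-208b-3p and miR-133a-3p. Of these, miR-122-5p is the main miRNA of hepatocytes, and miR-208a-3p, miR-208b-3p and miR-133a-3p belong to heart and skeletal muscle. The list was not tested as a set.

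Large families were counted in the same way, a comparison added after the values of the members had been seen. Of the 9 miRNA numbers with 8 or more mature entries on the array, miR-378 (miR-378j included) had 8 of 11 detected, or 72.7%, against 44.4% of all miRNAs. The share was 90.9% for miR-30 (10 of 11), 88.2% for let-7 (15 of 17) and 70.0% for miR-181 (7 of 10). It was 55.6% for miR-1273 (5 of 9), 15.7% for miR-548 (11 of 70) and 10.0% for miR-302 (1 of 10), while 0 of 10 entries of miR-518 and 0 of 11 of miR-520 were detected.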

How the data were processed

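Spot intensity was measured on 1 single-colour Agilent miRNA array of si-NC cells. Per the file headers, the image was read with Feature Extraction 11.0.1.1 on a design of the hg19 build. The authors deposited the intensity of every spot after background subtraction, without normalization to other arrays, together with flags and total gene signals. They also deposited 1 column of quantile-normalized log2 values, whose scale is not stated and whose floor was read from the values. The labels name Cyanine 3-pCp labelling, while the methods of the study name a cDNA kit.

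Members were matched by systematic name among non-control spots. Outlier spots were left out of means, SDs and CVs. The lowest, median and highest values are over the remaining spots of a probe, and medians over all 20 spots of a miRNA include outliers. A probe entered log2 values, CVs and probe differences where 50% or more of its spots were well above background. Detection was the flag of the software. Names in the text follow a rule: all members, other array miRNAs with the seed of miR-378a-3p, the 3 non-members with most matching bases, the 3 highest and all undetected entries of the metabolic list, and markers against the label. The members and lists were chosen with earlier results of these data known. Alternatives were other detection rules, the percentile over all miRNA spots, normexp (offset 50, on the median spot signal), inclusion of outlier spots, inclusion of dim probes, and the deposited values. Counts were taken as unchanged within 1.5 times, log2 values within 1 SD of replicate spots, and medians of CV and probe difference within a 95% interval from replicate spots. The calculations of the CV and of the probe difference were tested on simulated spots, all set well above background and without outliers. Detection, the filter and values near background were not tested in this way. Python 3.11.15, numpy 2.4.6, pandas 2.3.3, matplotlib 3.10.9, R 4.3.3 and limma 3.58.1 were used. The number of arrays, 1, limits the precision.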

Additional observations from a re-analysis of the deposited data

How the results depend on the processing

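Over 14 results, 58 alternative values were computed, of which 28 moved, 22 of these being log2 values of single members. The counts of detected members (8, or 6 where every probe had to be well above background), of miRNAs with the shared seed (4, or 3 under that rule) and of metabolic miRNAs (11 under all rules) stayed within 1.5 times. The rule on the deposited floor gives the detection flag by the way the floor was set. The median log2 signal of detected members, -1.16, moved to 1.28 when all miRNA spots set the reference level, which fell from 143 to 26.3, to -0.60 with normexp, to -0.78 with deposited values and to -2.38 over all members, where every probe with a mean above 0 enters, so that both the undetected members and the dim probes of miR-378e and miR-378f are added. The median probe difference, 0.79, moved to 0.67 with normexp and to 0.95 without the filter, over 9 members. Beyond the reference level and the added members and probes, the cause was not tested. The median CV lay between 4.06% and 6.27% in all settings. No paired analysis was possible because there is 1 sample. Signal over background limits the dim members: 16 of 20 spots of miR-378a-5p, 10 of 20 each of miR-378e and miR-378f and 0 of 20 each of miR-378c and miR-378h exceeded the 99th percentile of negative control spots.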
